A study of Mus musculus with 6 samples.

Results

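Inflammatory cell death was examined through 10 genes of pyroptosis and necroptosis in cultured mouse keratinocytes, namely Casp1, Casp4, Casp12, Casp8, Gsdmd, Gsdmc, Ripk1, Ripk3, Mlkl and Zbp1. They were chosen by name, with earlier results of these data known. All are among the 43629 genes of the count table, and 9 of the 10 had enough counts to be tested. Poly(A)-selected RNA was sequenced from 3 control and 3 Dnmt1Δ/Δep libraries of keratinocytes isolated from the epidermis of female mice at postnatal day 3 and cultured for 5 days, as the labels state. Dnmt1Δ/Δep mice are K5-Cre+ Dnmt1f/f, so that the Cre recombinase, driven by the Keratin 5 promoter, deletes the gene of the DNA methyltransferase DNMT1 in the epidermis and hair follicles. Control mice carry Dnmt1f/f or Dnmt1f/+ without the Cre, the labels do not say which of these a library came from, and all mice were of a mixed genetic background. The comparison asks which of these genes change in keratinocytes that lack DNMT1.

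Pyroptosis and necroptosis are forms of cell death in which the plasma membrane is broken from within and the cell contents are released. In pyroptosis, sensor proteins assemble inflammasomes that activate caspase-1, while caspase-11, the product of mouse Casp4, is activated by bacterial lipopolysaccharide in the cytosol. These caspases cleave gasdermin D, whose freed part forms membrane pores. In necroptosis, RIPK1, or ZBP1 bound to nucleic acids in the Z-conformation, engages RIPK3, which phosphorylates the membrane-permeabilizing protein MLKL. Caspase-8 cleaves RIPK1 and RIPK3 and thereby holds necroptosis back, and in mouse epidermis its loss is known to cause inflammation that depends on RIPK3 and MLKL. The counts measure RNA only, so that neither cleavage nor phosphorylation of these proteins was seen.

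Counts on genes summed to between 53433121 and 115526598 per library, and expression is given as counts per 1000000 gene reads (CPM) of the normalized library. A call required that the adjusted p did not exceed 0.05 and that the log2 fold change reached 1 in either direction (edgeR's quasi-likelihood test, Benjamini-Hochberg adjusted over the 16829 genes tested). The targeted gene Dnmt1 averaged 366 ± 37.2 CPM in control against 51.6 ± 2.44 CPM in Dnmt1Δ/Δep libraries (SD, n = 3), a log2 fold change of -2.83 with an adjusted p of 8.1e-05 by edgeR. Replicates are separate mice according to the study's methods. The keratinocyte markers Krt5 and Krt14 were the most abundant of the marker lists, and the 8 keratinocyte markers summed to 27084 to 30426 CPM in control libraries and to 19551 to 20258 CPM in Dnmt1Δ/Δep libraries. Of the 8, Krt5 and Krt14 passed the adjusted p at less than the fold threshold (log2 fold change -0.50 and -0.61, adjusted p = 0.038 and 0.028 by edgeR). The groups did not overlap for this pair, nor for 2 others with higher values in Dnmt1Δ/Δep. With 3 libraries against 3, an exact two-sided permutation test cannot give a p below 0.1, so single values were read from the fit across all genes.

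The 250 bases before the transcription start are shown for 5 members. Casp1, Casp4 and Casp12 lie next to each other and had the 3 largest fitted changes of the members in the main test, which leaves out Zbp1. Mlkl and Ripk3 encode partners of which 1 was called and the other was not. The sequences are from RefSeq on GRCm38.p6, read 5′ to 3′ toward the gene, and capitals mark CpG dinucleotides, the sites that DNMT1 methylates.
Casp1, chr9:5298267-5298516, plus strand: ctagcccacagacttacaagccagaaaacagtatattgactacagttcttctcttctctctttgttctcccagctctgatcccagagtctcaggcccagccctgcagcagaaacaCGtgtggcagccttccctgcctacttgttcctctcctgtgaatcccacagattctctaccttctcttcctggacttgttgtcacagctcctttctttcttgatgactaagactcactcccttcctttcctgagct
Casp4, chr9:5308599-5308848, plus strand: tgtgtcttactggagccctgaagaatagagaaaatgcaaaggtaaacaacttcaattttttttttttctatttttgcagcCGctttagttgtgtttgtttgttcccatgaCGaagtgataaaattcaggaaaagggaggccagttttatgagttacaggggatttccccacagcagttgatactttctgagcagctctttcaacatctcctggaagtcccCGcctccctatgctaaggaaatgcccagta
Casp12, chr9:5345226-5345475, plus strand: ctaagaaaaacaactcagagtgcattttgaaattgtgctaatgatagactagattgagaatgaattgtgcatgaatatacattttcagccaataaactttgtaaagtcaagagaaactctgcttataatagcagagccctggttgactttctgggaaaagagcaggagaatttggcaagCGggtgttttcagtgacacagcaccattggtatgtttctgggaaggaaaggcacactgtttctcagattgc
Mlkl, chr8:111338206-111338455, minus strand: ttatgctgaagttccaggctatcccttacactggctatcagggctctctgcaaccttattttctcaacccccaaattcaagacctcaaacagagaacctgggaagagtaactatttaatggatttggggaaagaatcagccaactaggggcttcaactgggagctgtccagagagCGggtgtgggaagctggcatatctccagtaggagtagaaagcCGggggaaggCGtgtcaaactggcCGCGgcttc
Ripk3, chr14:55788858-55789107, minus strand: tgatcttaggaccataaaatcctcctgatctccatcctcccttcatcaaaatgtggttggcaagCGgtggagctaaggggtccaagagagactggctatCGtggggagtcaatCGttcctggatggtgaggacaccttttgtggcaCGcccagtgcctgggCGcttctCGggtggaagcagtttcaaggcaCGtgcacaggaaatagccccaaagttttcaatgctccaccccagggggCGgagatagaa

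The promoters of the called caspases held few CpG sites. The windows of Casp1 and Casp12 had 1 CpG each and the Casp4 window shown had 3, against a median of 6 over 32851 mouse promoters of the same length (quartiles 2 and 16). The Mlkl promoter had 5, the Ripk3 promoter 8 and the Casp8 promoter 5, whereas the pair of Ripk1 promoters had 19 and 32. Of all promoters, 18.8% had no more CpG sites than those of Casp1 and Casp12, and 49.6% no more than that of Mlkl. DNA methylation itself was not measured in these libraries. Of the 10 members, 7 matched the promoter table, with 9 promoters. Gsdmd, Gsdmc and Zbp1 did not, so that nothing is known here of their sequences. None of the 9 promoters held the core of the interferon-stimulated response element (GAAA, then 2 bases of any kind, then GAAA, searched on both strands), which 2.98% of all promoters hold. A count of 0 among 9 is near that share. The core of the gamma-activated site bound by STAT proteins (TTCNNNGAA, the same on either strand) was in 7.02% of all promoters. It stood in the Casp12 promoter as TTCTGGGAA at positions -102 and -36 from the start, and in 1 of the Ripk1 promoters as TTCCCGGAA at -108 and -11. A pair of such matches was in 0.317% of all promoters. These matches describe letters in the window and no binding was measured.

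In Dnmt1Δ/Δep keratinocytes, 3 of the 9 members tested were upregulated and 0 were downregulated, where 6.03% of all genes tested were called upregulated and 0.392% downregulated. The upregulated members were Mlkl, which carries out necroptosis, and the inflammatory caspase genes Casp1 and Casp12. A further gene, Gsdmd, passed the adjusted p at less than the fold threshold, and 7.71% of all genes passed the adjusted p with a rise of any size. Libraries of the groups did not overlap, with higher values in Dnmt1Δ/Δep, for 7 of the 9, against 18.2% of all genes tested (29.9% without overlap in either direction, 11.7% with lower values). Over the 9 members tested the median log2 fold change was 0.89, and over all genes tested it was -0.00089. Casp4 and Casp12 reached the minimum of 0.109 CPM in 3 libraries, which the filter asks for, only with the help of their Dnmt1Δ/Δep libraries, so that these counts and the median describe the tested members and support nothing. Without this pair, 2 of 7 were upregulated, 5 of 7 were higher in every Dnmt1Δ/Δep library than in any control library, and the median was 0.33. With 1 library left out the number upregulated was 4 without control replicate 1, 1 without control replicate 2, 3 without Dnmt1Δ/Δep replicate 2 and 2 without any of the other libraries. The members differed widely in their level, so that the changes of the abundant kinases and of the rare caspases were measured with very different precision.

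**Figure D1:**
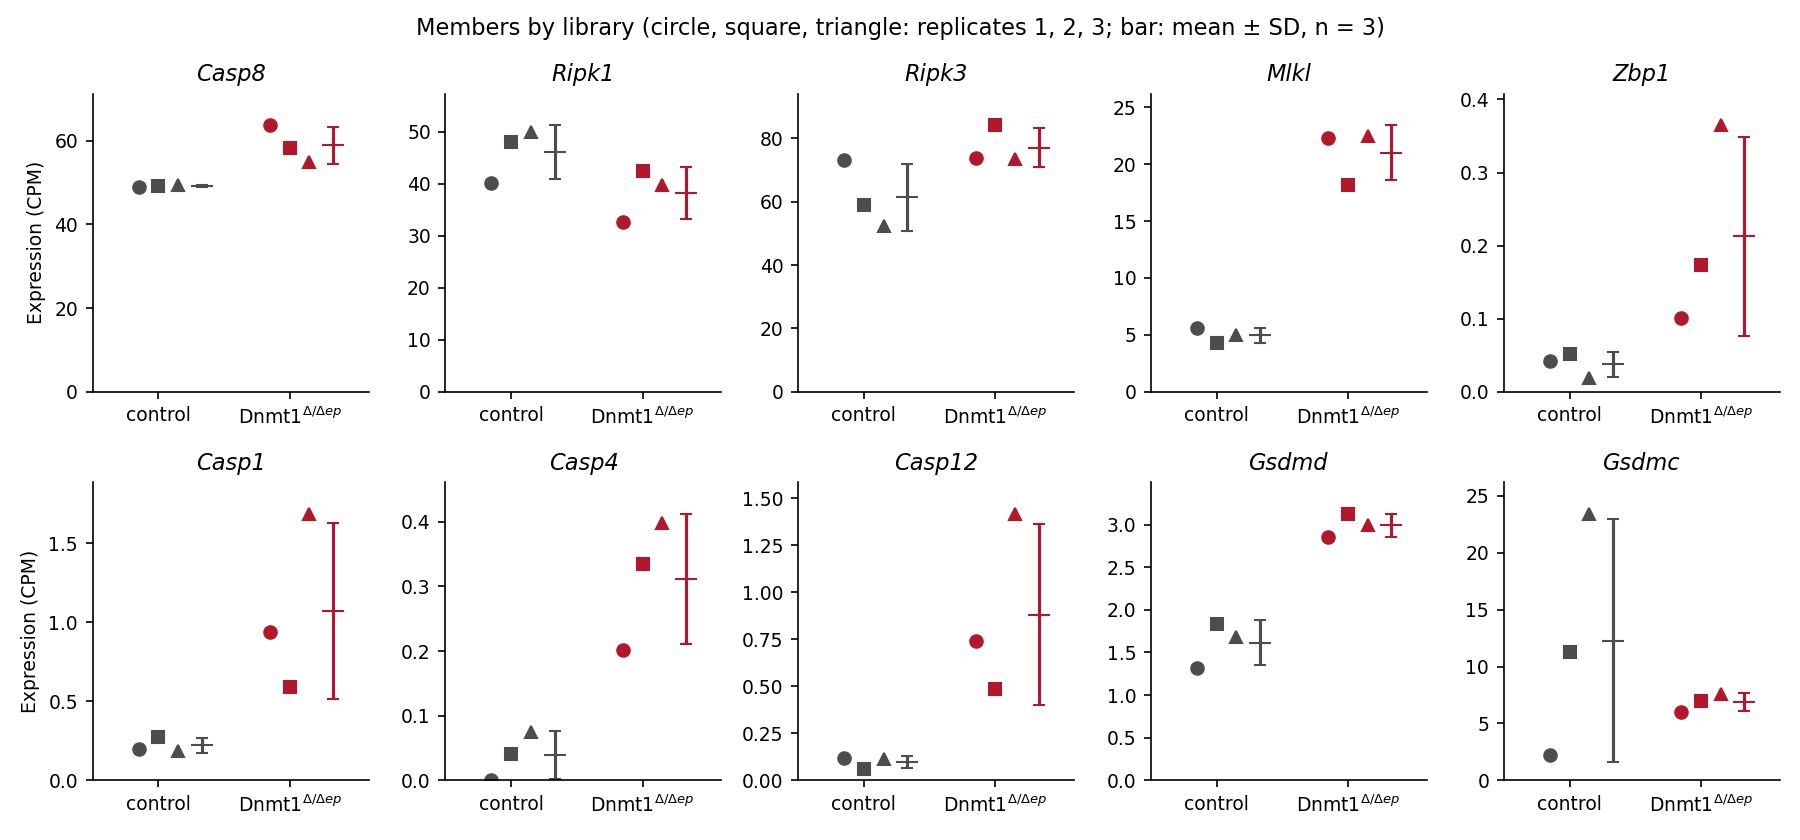
Expression of the 10 members in CPM on axes that start at 0, with 1 point per library (circle, square and triangle for replicates 1, 2 and 3) and the mean ± SD of 3 libraries beside them, control in grey and Dnmt1Δ/Δep in red. The 3 Dnmt1Δ/Δep libraries of Mlkl lie between 18.2 and 22.4 CPM, above all control libraries, while the Gsdmc points of the control libraries spread from 2.19 to 23.4 CPM.

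Mlkl (ENSMUSG00000012519, chromosome 8, 111311797 to 111338177, minus strand), the pseudokinase that permeabilizes the membrane at the end of necroptosis, had the smallest adjusted p of the members tested. It had 5.61, 4.29 and 5.03 CPM in control replicates 1, 2 and 3 and 22.3, 18.2 and 22.4 CPM in the Dnmt1Δ/Δep replicates. The groups lay far apart, and the spread within each was small beside the gap between them. Mlkl was 4.22-fold higher in Dnmt1Δ/Δep keratinocytes (95% interval 3.24 to 5.49; log2 fold change 2.08, standard error 0.16, adjusted p = 0.00060 by edgeR). The call was made in 12 of 12 alternative settings, with log2 fold changes between 1.98 and 2.17.

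Ripk3 (ENSMUSG00000022221, chromosome 14, 55784995 to 55788865, minus strand), the kinase that phosphorylates MLKL, did not pass the test. It had 73.1, 58.9 and 52.4 CPM across the control libraries and 73.7, 84.0 and 73.4 CPM across the Dnmt1Δ/Δep libraries. The groups did not overlap, but control replicate 1 came within 1 CPM of the lowest Dnmt1Δ/Δep library. The log2 fold change was 0.33 (95% interval -0.0025 to 0.65, adjusted p = 0.22 by edgeR), so that a rise to 1.57-fold was within the interval and a rise of the size of Mlkl was not. Without control replicate 1 the adjusted p was 0.037, still at less than the fold threshold.

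Ripk1 (ENSMUSG00000021408, chromosome 13, 34002363 to 34037147, plus strand) acts upstream of RIPK3 and also carries survival signals from the TNF receptor. Its control libraries had 40.2, 48.1 and 49.8 CPM and its Dnmt1Δ/Δep libraries 32.6, 42.3 and 39.7 CPM. The groups overlapped, and the log2 fold change was -0.27 (95% interval -0.59 to 0.05, adjusted p = 0.30 by edgeR). Of its exon bases, 9.01% also lie in exons of Serpinb6a on the opposite strand or of Gm17084, where reads counted without strand cannot be told apart.

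Casp8 (ENSMUSG00000026029, chromosome 1, 58795374 to 58847503, plus strand), the apoptotic caspase that restrains necroptosis, was the steadiest member among control libraries. It had 49.0, 49.2 and 49.3 CPM there and 63.6, 58.2 and 54.9 CPM across the Dnmt1Δ/Δep libraries. All Dnmt1Δ/Δep values were above all control values, yet the difference did not pass the test (log2 fold change 0.26, 95% interval 0.04 to 0.48, adjusted p = 0.14 by edgeR). The upper end of the interval corresponds to 1.40-fold.

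Zbp1 (ENSMUSG00000027514, chromosome 2, 173206612 to 173218923, minus strand), the sensor of Z-form nucleic acids that binds RIPK3, was close to the limit of detection. It had 4, 5 and 1 counts across the control libraries and 6, 15 and 43 counts across the Dnmt1Δ/Δep libraries, which is 0.0423, 0.0513 and 0.0186 CPM against 0.101, 0.173 and 0.364 CPM. All Dnmt1Δ/Δep libraries were higher, but these counts were too few for the filter, so that Zbp1 has no main test. Pooled over libraries, the ratio of the groups was 5.96 (95% counting interval 3.04 to 13.0, which covers counting error only). Without the filter the adjusted p was 0.054 by edgeR, and it was 0.054 by DESeq2.

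Levels per exon length place these genes in relation to each other. Values in CPM per kilobase of exon (RPKM) were highest for Ripk3 in both groups, 26.8 ± 4.61 in control against 33.6 ± 2.65 in Dnmt1Δ/Δep keratinocytes (SD, n = 3), followed by Casp8 with 17.0 ± 0.0551 and 20.4 ± 1.53 RPKM. In control keratinocytes Ripk1 (5.52 RPKM), Gsdmc (5.11) and Mlkl (2.16) came next. Ripk1 and Gsdmc overlapped there, as did Gsdmc and Mlkl, so that the place of Gsdmc was not resolved, while all libraries of Ripk1 were above those of Mlkl. In Dnmt1Δ/Δep keratinocytes Mlkl rose to the third place with 9.11 ± 1.05 RPKM, and none of its libraries overlapped Casp8 above it or Ripk1, with 4.58 RPKM, below it. The RPKM of Ripk3 over that of Mlkl was 13.1, 13.8 and 10.5 across the control libraries and 3.32, 4.64 and 3.28 across the Dnmt1Δ/Δep libraries. The kinase RNA therefore exceeded the RNA of its substrate by a smaller factor in every Dnmt1Δ/Δep library. Gsdmd was sixth in both groups, with 0.678 and 1.26 RPKM. Casp1 (0.148 and 0.716 RPKM) and Casp12 (0.0251 and 0.229) followed. Zbp1 and Casp4 were the lowest, at 0.0106 and 0.0104 RPKM in control and 0.0603 and 0.0840 RPKM in Dnmt1Δ/Δep libraries, and they overlapped in both groups.

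**Figure D2:**
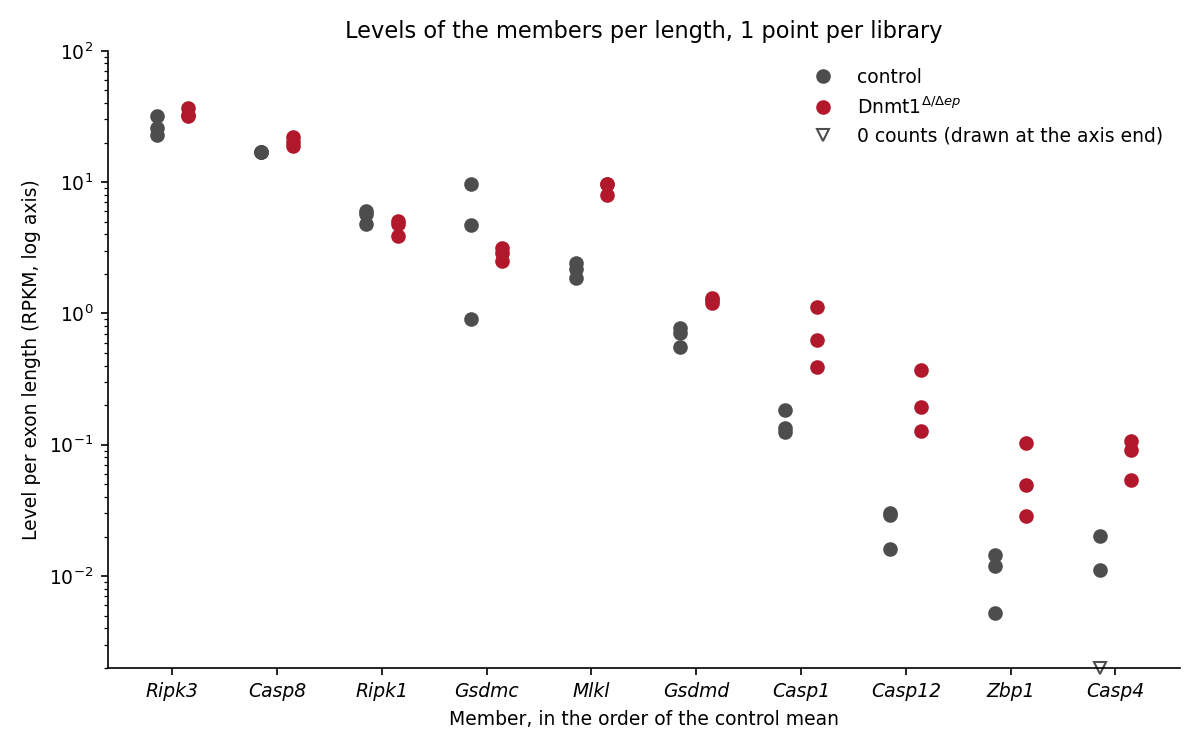
Level of each member in RPKM on a log axis, 1 point per library, control in grey and Dnmt1Δ/Δep in red, ordered by the control mean, with a library of 0 counts drawn as an open triangle at the axis end. Ripk3 and Casp8 lie highest in both groups, and Mlkl moves from a mean of 2.16 to 9.11 RPKM, above Ripk1.

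The inflammatory caspase genes had few reads in every library, and more in Dnmt1Δ/Δep keratinocytes. Casp1 (ENSMUSG00000025888, chromosome 9, 5298517 to 5307265, plus strand), which encodes the protease that matures interleukin-1β and cleaves gasdermin D, had 19, 27 and 10 counts across the control libraries and 56, 51 and 199 across the Dnmt1Δ/Δep libraries. In normalized terms this was 0.201, 0.277 and 0.186 CPM against 0.939, 0.590 and 1.69 CPM. The groups did not overlap, and Dnmt1Δ/Δep replicate 3 was the highest. The log2 fold change was 2.26 (standard error 0.46, 95% interval 1.19 to 3.33, adjusted p = 0.024 by edgeR). The call was lost when any of 4 libraries was left out. The adjusted p was 0.077 without control replicate 2, 0.069 without control replicate 3, 0.070 without Dnmt1Δ/Δep replicate 1 and 0.067 without Dnmt1Δ/Δep replicate 3, with log2 fold changes of 2.46, 2.16, 2.35 and 1.76.

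Casp12 (ENSMUSG00000025887, chromosome 9, 5345430 to 5373032, plus strand), a caspase of the same family whose function is less settled, had the same order of the Dnmt1Δ/Δep libraries as Casp1. It had 11, 6 and 6 counts across the control libraries and 44, 42 and 167 across the Dnmt1Δ/Δep libraries, or 0.116, 0.0616 and 0.112 CPM against 0.738, 0.486 and 1.42 CPM. Dnmt1Δ/Δep replicate 3 was again the highest and replicate 2 the lowest of its group. The log2 fold change was 3.20 (standard error 0.53, 95% interval 1.95 to 4.44, adjusted p = 0.012 by edgeR), and the adjusted p was 0.060 without control replicate 2, with a log2 fold change of 2.93. The RPKM of Casp1 over that of Casp12 was 3.26, 3.11 and 3.06 across the Dnmt1Δ/Δep libraries and between 4.28 and 11.5 in the control libraries, where the latter rest on 6 to 11 counts of Casp12.

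Casp4 (ENSMUSG00000033538, chromosome 9, 5308828 to 5336783, plus strand), the gene of the lipopolysaccharide-sensing caspase-11, stood at the threshold. It had 0, 4 and 4 counts across the control libraries and 12, 29 and 47 across the Dnmt1Δ/Δep libraries, which is 0, 0.0410 and 0.0745 CPM against 0.201, 0.335 and 0.398 CPM. The 0 counts of control replicate 1 allow up to 0.0317 CPM. The groups did not overlap, but the spread between libraries was wide at these counts, with a log2 fold change of 3.15 (standard error 0.81, 95% interval 1.26 to 5.04, adjusted p = 0.054 by edgeR). Blocking on replicate number lowered the adjusted p to 0.036 at a log2 fold change of 3.17, so that Casp4 was called. DESeq2 gave 3.12 with an adjusted p of 0.0055, and without the filter the adjusted p was 0.022 by edgeR. With 1 library left out, Casp4 was called only without control replicate 1 (adjusted p = 0.037 by edgeR). In the other fits of this kind the adjusted p lay between 0.066 and 0.18 by edgeR.

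The 3 caspase genes lie side by side on chromosome 9, within 74.5 kb (GRCm38, 5298517 to 5373032). From the end of Casp1 to the start of Casp4 there are 1.56 kb, and from Casp4 to Casp12 8.65 kb. Their fitted changes lay between 2.26 and 3.20 on the log2 scale. The nearest tested genes outside the run did not pass the test. Msantd4, 912 kb before Casp1, had a log2 fold change of 0.04 (95% interval -0.19 to 0.28, adjusted p = 0.86 by edgeR). Pdgfd, a growth factor gene 796 kb after Casp12, had -0.84 (95% interval -2.63 to 0.95, adjusted p = 0.59 by edgeR) at a control mean of only 0.265 CPM. The targeted gene Dnmt1 also lies on chromosome 9 (20907209 to 20959888). The mice were of a mixed background, and the strain alleles that each library carries on this chromosome were not examined.

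**Figure D3:**
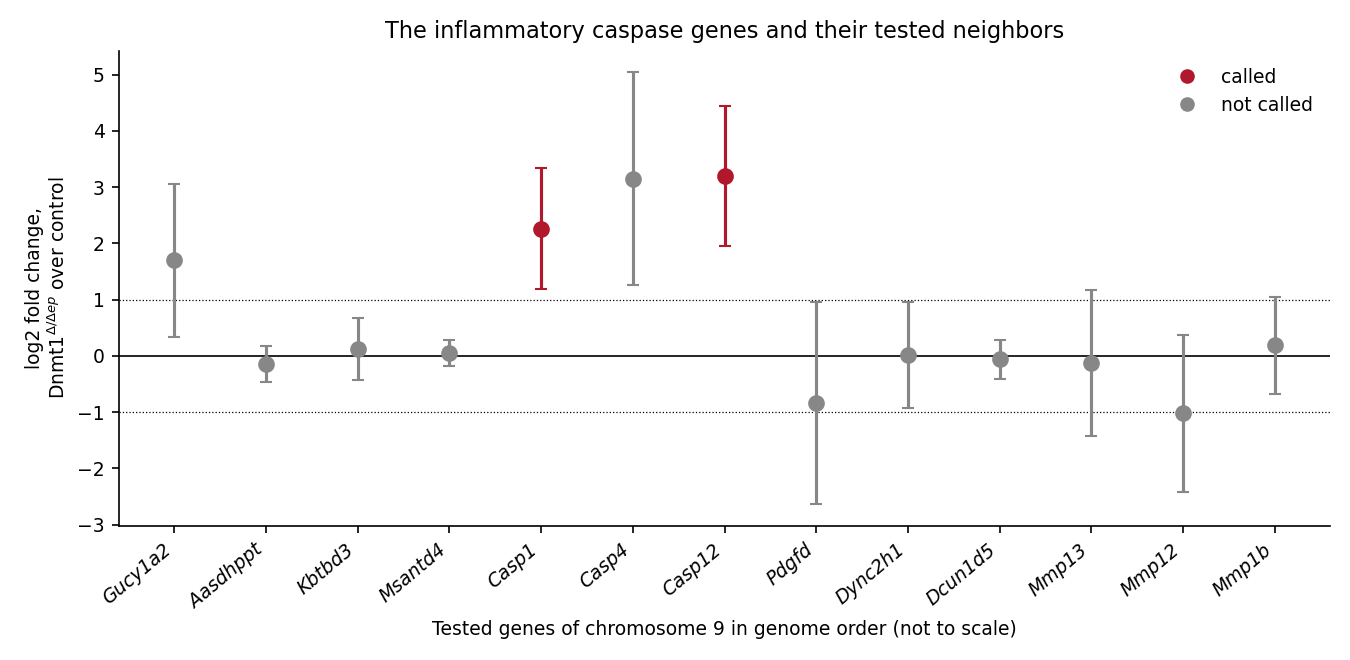
log2 fold change of Dnmt1Δ/Δep over control with its 95% interval for the tested genes of chromosome 9 around the inflammatory caspase genes, in genome order but not to scale, called genes in red and others in grey. Casp1, Casp4 and Casp12 lie between 2.26 and 3.20, and the intervals of the neighbors, apart from that of Gucy1a2 at 1.70, include 0.

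Next to the 10 members, on either side, there were 16 other tested genes, of which 2 were upregulated and 0 were downregulated, where 6.03% of all genes tested were called upregulated. Pmepa1, a membrane protein gene induced by TGF-β, lies 5.53 kb from Zbp1 and rose by a log2 fold change of 1.30 (adjusted p = 0.0012 by edgeR), with means of 40.6 ± 5.30 and 99.9 ± 5.86 CPM (SD, n = 3). The other was Gsdmc2, described with the gasdermins. Gsdmc2 met the filter on low values only with the help of Dnmt1Δ/Δep libraries, so that the count of 2 is a description. Cflar, which encodes the caspase-8 inhibitor cFLIP, is the neighbor of Casp8 at 36.5 kb and had 46.1 ± 8.97 and 69.9 ± 10.96 CPM (SD, n = 3). Its groups did not overlap, but it missed the threshold with a log2 fold change of 0.60 and an adjusted p of 0.077 by edgeR. The genes on either side of Mlkl, Rfwd3 and Wdr59, had log2 fold changes of -0.17 and -0.04 (adjusted p = 0.33 and 0.90 by edgeR). The neighbors of Ripk3 were Adcy4 at 0.81 and Nfatc4 at -0.36 (adjusted p = 0.20 and 0.65 by edgeR). Those of Gsdmd, Gm9568 and Mroh6, were at 0.34 and 0.46 (adjusted p = 0.75 and 0.30 by edgeR). Ripk1 had Nqo2 at 0.29 and Bphl at -0.42 beside it (adjusted p = 0.32 and 0.23 by edgeR). Rbm38 on the other side of Zbp1 was at -0.01, Pvt1 on the other side of Gsdmc at 0.63, and Gm37760, which overlaps Casp8, at 0.45 (adjusted p = 0.99, 0.062 and 0.68 by edgeR).

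Both gasdermin genes among the members were tested and neither was called. Gsdmd (ENSMUSG00000022575, chromosome 15, 75862327 to 75867408, plus strand), the pore-forming substrate of caspase-1 and caspase-11, had 1.32, 1.84 and 1.68 CPM across the control libraries and 2.85, 3.12 and 2.99 CPM across the Dnmt1Δ/Δep libraries. The groups did not overlap, and the Dnmt1Δ/Δep libraries lay within 5% of their mean (SD 4.52% of the mean). Gsdmd was 1.86-fold higher (95% interval 1.32 to 2.60; log2 fold change 0.89, standard error 0.21, adjusted p = 0.040 by edgeR), which passes the adjusted p but not the fold threshold. The adjusted p missed the threshold without control replicate 2 (0.097), control replicate 3 (0.088) or Dnmt1Δ/Δep replicate 1, 2 or 3 (0.11, 0.15 and 0.12), at log2 fold changes between 0.81 and 0.998. Without the filter on low counts it was 0.071, and at a mean RPKM of at least 1 it lay just over the threshold. The adjusted p was 0.0027 by DESeq2, 0.032 with the replicate block, 0.046 with the RLE normalization, 0.040 with the upper-quartile normalization and 0.046 without control replicate 1.

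Gsdmc (ENSMUSG00000079025, chromosome 15, 63775968 to 63808759, minus strand), a gasdermin of skin and gut that caspase-8 can cleave, varied widely between control libraries (SD 86.7% of the mean). The control libraries had 2.19, 11.2 and 23.4 CPM and the Dnmt1Δ/Δep libraries 6.01, 6.96 and 7.59 CPM. Thus the Dnmt1Δ/Δep libraries fell between control replicate 1 and the other two control libraries. The log2 fold change was -0.84 (standard error 0.68, 95% interval -2.43 to 0.76, adjusted p = 0.54 by edgeR), and its direction and its call depended on single control libraries. It was 0.03 without control replicate 3 (adjusted p = 0.99), and without control replicate 1 it was -1.33 with an adjusted p of 0.031 by edgeR, a call. Markers of differentiated keratinocytes varied in the same libraries. Krt1 had 53.2, 356 and 530 CPM across the control libraries and between 59.2 and 66.1 CPM across the Dnmt1Δ/Δep libraries, and the skin gasdermin gene Gsdma had 13.5, 27.7 and 54.0 CPM against 25.5 to 37.8 CPM. Krt10 had a log2 fold change of -1.58, like Krt1 (-2.30) toward lower values across the Dnmt1Δ/Δep libraries, whereas Ivl and Lor, markers of late differentiation, had 1.61 and 1.70, and none of these was called (adjusted p = 0.069, 0.085, 0.061 and 0.054 by edgeR). The part of keratinocyte differentiation in the values of Gsdmc was not tested.

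**Figure D4:**
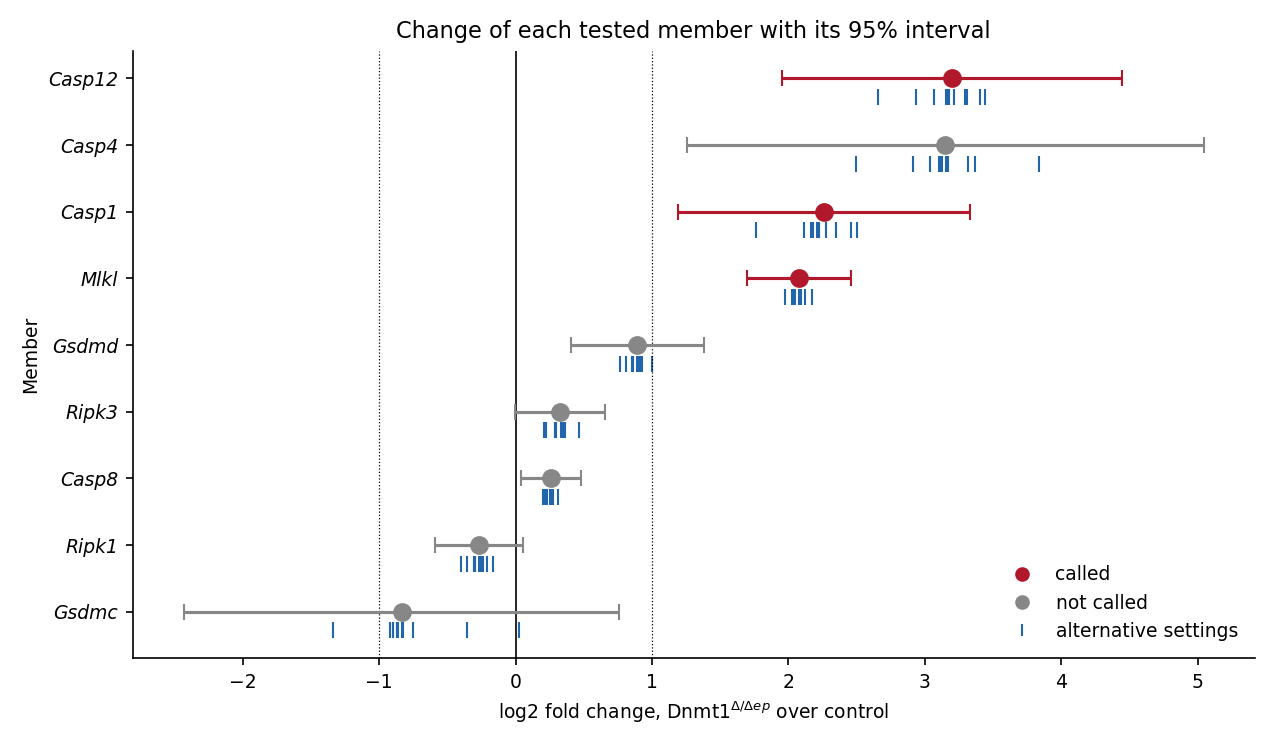
log2 fold change of Dnmt1Δ/Δep over control for the 9 tested members with the 95% interval of edgeR's fit, called members in red and others in grey, with blue ticks below each for the alternative settings and dotted lines at the fold threshold. Mlkl has the narrowest interval of the called members (1.70 to 2.46), and the interval of Gsdmc reaches from -2.43 to 0.76.

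Of 15 paralogs that share a name stem with a caspase, gasdermin or RIPK member, 12 were tested, 2 were upregulated (Gsdmc2 and Gsdma3, against 6.03% of all genes tested) and 0 were downregulated. Gsdmc2 and Gsdma3 met the filter on low values only with the help of Dnmt1Δ/Δep libraries, so that this count is a description and supports nothing. No other paralog was called. Casp2, Casp6 and Casp9 had log2 fold changes of -0.26, -0.18 and -0.11, with adjusted p from 0.12 to 0.79 by edgeR. Casp14, the caspase of cornifying keratinocytes, had -0.62 (adjusted p = 0.26 by edgeR) and spread over the control libraries from 27.1 to 64.5 CPM. Ripk2, which signals from the NOD receptors, and Ripk4, a kinase of epidermal differentiation, had 0.10 and 0.07 (adjusted p = 0.78 and 0.73 by edgeR). The nearest relatives of Gsdmc and Gsdma had few reads. Gsdmc2, 15.6 kb from Gsdmc, had 0.0846, 0.113 and 0.186 CPM across the control libraries and 0.470, 0.474 and 0.475 CPM across the Dnmt1Δ/Δep libraries. The groups did not overlap and the log2 fold change was 1.92 (standard error 0.40, adjusted p = 0.026 by edgeR). That call was lost without any of the Dnmt1Δ/Δep libraries (adjusted p from 0.084 to 0.092) and without control replicate 2 (0.12). Gsdmc3, Gsdmc4 and Gsdma2 had at most 10 counts in any library and were not tested. Gsdme was at 0.377 ± 0.259 and 0.547 ± 0.126 CPM (SD, n = 3; adjusted p = 0.63 by edgeR). Since the column names mark the counted reads as uniquely mapped, values of near-identical paralogs in the Gsdmc, Gsdma and Naip families are uncertain.

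The wider pathways were read from 4 lists with 77 genes. Among the inflammasome sensors and adaptors, which lie upstream of caspase-1, 17 of 18 genes matched the table, 11 were tested and 5 were upregulated, with 0 downregulated (6.03% and 0.392% of all genes tested). The median log2 fold change of the 11 was 2.15. Naip2, Naip6, Nlrp1a and Nlrp1b met the filter on low values only with the help of Dnmt1Δ/Δep libraries, so that this count and median are a description. Among the other 7 tested genes 3 were upregulated and the median was 0.01. Aim2, the sensor of cytosolic DNA, had 0.529, 0.934 and 1.40 CPM across the control libraries and 16.1, 13.1 and 16.3 CPM across the Dnmt1Δ/Δep libraries (log2 fold change 4.01, standard error 0.35, adjusted p = 0.00097 by edgeR). Nlrp10, an NLR protein expressed in epidermis, averaged 5.21 ± 1.47 CPM against 34.8 ± 6.32 CPM (SD, n = 3) and rose by a log2 fold change of 2.75 (adjusted p = 0.0010 by edgeR). Gbp2, a guanylate-binding protein that acts on intracellular bacteria, rose by a log2 fold change of 2.15 (adjusted p = 0.0074 by edgeR). Naip2 and Naip6 encode members of the family that recognizes bacterial flagellin and secretion systems. Naip6 had 1, 3 and 0 counts across the control libraries and 109, 276 and 214 across the Dnmt1Δ/Δep libraries, a pooled ratio of 139 (95% counting interval 54.2 to 513). Naip2 had a log2 fold change of 2.93 (adjusted p = 0.028 by edgeR), on at most 4 counts per control library, and its call was kept in 2 of 6 fits with a library left out. It was lost without control replicate 1 or 2 and without Dnmt1Δ/Δep replicate 1 or 3. Their partner Nlrc4 was without a read in control libraries and had 1, 5 and 12 counts across the Dnmt1Δ/Δep libraries.

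The adaptor of the inflammasome did not pass the test. Pycard, which encodes ASC, the link between sensors and caspase-1, had 31.6, 62.7 and 89.5 CPM across the control libraries and 31.2, 49.0 and 33.2 CPM across the Dnmt1Δ/Δep libraries. The groups overlapped (log2 fold change -0.70, 95% interval -1.54 to 0.15, adjusted p = 0.31 by edgeR), and Pycard was called downregulated only without control replicate 1. Of its exon bases, 12.8% overlap Gm45205 on the opposite strand. Nek7, a kinase needed by NLRP3, and Dpp8, a protease that restrains NLRP1, had log2 fold changes of 0.01 and -0.22 (adjusted p = 0.97 and 0.18 by edgeR). Nlrp3 itself had at most 9 counts in a library and Mefv had 0 in all 6.

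Of the other gasdermins and products of pyroptosis, 8 of 11 were tested and 3 were upregulated, with 0 downregulated (6.03% and 0.392% of all genes tested) and a median log2 fold change of 1.26. Of the 8, Gsdma3, Gsdmc2 and Il1b were tested only because of their Dnmt1Δ/Δep libraries, and among the other 5 the number upregulated was 1 and the median 0.52. Besides Gsdmc2, these were Il1a and Gsdma3. Il1a, the gene of the keratinocyte alarmin interleukin-1α, had 9.57, 2.53 and 4.45 CPM across the control libraries and 111, 92.0 and 49.5 CPM across the Dnmt1Δ/Δep libraries. Each Dnmt1Δ/Δep library was far above each control library (log2 fold change 3.93, standard error 0.54, adjusted p = 0.0057 by edgeR). Gsdma3 had 1, 1 and 2 counts across the control libraries and 14, 27 and 35 across the Dnmt1Δ/Δep libraries, a pooled ratio of 17.7 (95% counting interval 6.63 to 66.6). Il1b, the main substrate of caspase-1, had at most 20 counts in any library and Il18 overlapped between the groups (adjusted p = 0.39 and 0.38 by edgeR). Ninj1, which encodes the protein that ruptures the membrane of dying cells, had 31.7 ± 2.14 and 26.4 ± 2.59 CPM (SD, n = 3; adjusted p = 0.23 by edgeR), and Gsdma had a log2 fold change of -0.01.

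Of the regulators of death receptor signaling and necroptosis, 27 of 29 were tested, and 2 were upregulated and 0 downregulated, a share near the 6.03% of all genes tested. Their median log2 fold change was -0.02. Tnf, the cytokine that triggers this pathway, had 1.33, 1.39 and 3.57 CPM across the control libraries and 11.9, 14.6 and 14.7 CPM across the Dnmt1Δ/Δep libraries (log2 fold change 2.73, adjusted p = 0.0074 by edgeR). Tnfaip3, which encodes the ubiquitin-editing inhibitor A20, rose by a log2 fold change of 1.39 (adjusted p = 0.0045 by edgeR), from 21.0 ± 4.90 CPM to 54.8 ± 3.91 CPM (SD, n = 3). The receptor gene Tnfrsf1a had 107 ± 17.3 and 99.2 ± 10.2 CPM (SD, n = 3; adjusted p = 0.75 by edgeR). Mapkapk2, whose product phosphorylates RIPK1, and Pgam5, a mitochondrial phosphatase, had log2 fold changes of -0.04 and 0.19 (adjusted p = 0.90 and 0.44 by edgeR). Of the exon bases of Pgam5, 58.1% overlap Gm26718 on the opposite strand.

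Apoptotic caspases and the Bcl2 family formed the control list of another form of cell death. All 19 were tested, and edgeR called 0 upregulated and 0 downregulated (6.03% and 0.392% of all genes tested). DESeq2 also called 0 in either direction, while 5 had an unadjusted p under 0.05 by edgeR. Libraries did not overlap, with lower values in Dnmt1Δ/Δep, for 7 of the 19 (11.7% of all genes tested), and with higher values for 1 (18.2%). The median log2 fold change was -0.11. Pmaip1 (NOXA), Mcl1 and Bax, the most abundant per length, were at -0.24, 0.04 and -0.30 (adjusted p = 0.22, 0.87 and 0.24 by edgeR). Bcl2l1, the gene of the survival protein BCL-XL, passed the adjusted p at less than the fold threshold (log2 fold change 0.88, adjusted p = 0.016 by edgeR), and it was called without Dnmt1Δ/Δep replicate 3. No difference between the lists was tested.

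**Figure D5:**
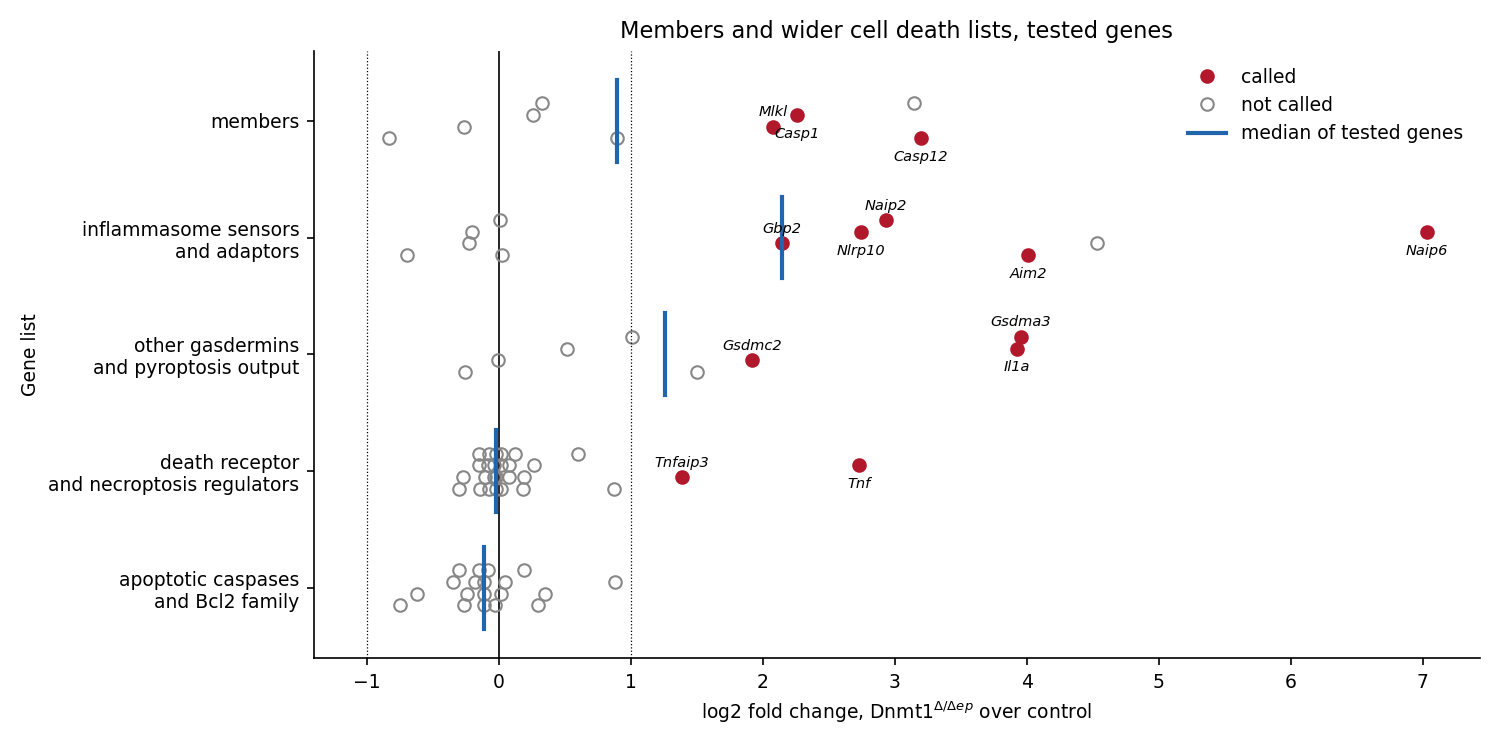
log2 fold change of Dnmt1Δ/Δep over control for the tested genes of the members and of the 4 wider lists, with called genes as filled red points, the others as open grey points, the median of each list as a blue bar and dotted lines at the fold threshold. Called genes are to the right in 4 of the 5 rows, and the medians are 0.89, 2.15, 1.26, -0.02 and -0.11 from top to bottom. The fitted values of Naip6 and Gsdma3 rest on at most 3 counts per control library, and without the genes that met the filter only with Dnmt1Δ/Δep libraries the first 3 medians are 0.33, 0.01 and 0.52.

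Several members are known targets of interferon, and a list of 12 interferon-stimulated genes changed in the same libraries. Of these, 8 were upregulated and 0 downregulated, where 6.03% of all genes tested were called upregulated. A subset of 5 (Ifit1, Oasl1, Rsad2, Mx1 and Ifi44) met the filter on low values only with Dnmt1Δ/Δep libraries, and of the other 7 genes 4 were upregulated. The summed level of the 12 lay between 20.9 and 31.3 CPM in control libraries and between 45.5 and 63.3 CPM in Dnmt1Δ/Δep libraries. The number called was 3 without control replicate 2, 4 without Dnmt1Δ/Δep replicate 3 and 5 without Dnmt1Δ/Δep replicate 1 or 2. The sum was highest in Dnmt1Δ/Δep replicate 3, the library that was also highest for Casp1, Casp12, Casp4 and Zbp1. The part of interferon signaling in these values was not tested.

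Markers of other cells were read in the same libraries, since caspase-1, caspase-11 and ZBP1 are also made by leukocytes and fibroblasts. In such bulk samples, fewer cells of a type and less RNA per cell cannot be told apart. The pan-leukocyte marker Ptprc had at most 0.0372 CPM in control libraries and 0.201, 0.0116 and 0 CPM across the Dnmt1Δ/Δep libraries. Of 9 macrophage and dendritic cell markers, 6 were tested and 2 were upregulated (Csf1r and Itgam), where 6.03% of all genes tested were called upregulated. Of the 6, Cd74 and Mrc1 met the filter on low values only with the help of Dnmt1Δ/Δep libraries, so that this count is a description. Of the exon bases of Itgam, 68.7% overlap Gm49368. Cd68 passed the adjusted p at less than the fold threshold (log2 fold change 0.97, adjusted p = 0.0041 by edgeR), and Cd74 had a log2 fold change of 3.30 without overlap of the groups (adjusted p = 0.14 by edgeR). Their sum was 52.1 to 65.1 CPM in control libraries and 105 to 122 CPM in Dnmt1Δ/Δep libraries, most of it Cd68, while Adgre1 and Cd207 were at 0 in all control libraries and at most at 0.00848 CPM in a Dnmt1Δ/Δep library. The 6 neutrophil markers summed to 49.3 to 126 and 192 to 253 CPM. Of these, 2 were tested and both were upregulated, against 6.03% of all genes tested, namely S100a8 and S100a9, which keratinocytes also express. Csf3r was at 0 in all libraries. The 6 T and NK cell markers summed to at most 0.0529 CPM in control libraries and at most 0.0925 CPM in Dnmt1Δ/Δep libraries, with Cd3g and Ncr1 at 0. Of 4 mast cell markers 0 were called, Cpa3 and Mcpt4 were at 0, and the sum of 3.54 to 8.51 against 11.01 to 15.1 CPM was mostly Kit.

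Fibroblast markers summed to 12.2 to 28.02 CPM in control libraries and to 58.8, 11.96 and 49.9 CPM in Dnmt1Δ/Δep replicates 1, 2 and 3, with 0 of 6 called. The 5 melanocyte markers summed to 204 to 536 and 646 to 873 CPM, with 0 called. All 4 endothelial markers were tested and 2 were upregulated, against 6.03% of all genes tested. These were Cdh5, with a log2 fold change of 4.11 (adjusted p = 0.0097 by edgeR), and Pecam1, at 1.89 (adjusted p = 0.0075 by edgeR). The groups overlapped in neither gene. Cdh5 met the filter on low values only with the help of Dnmt1Δ/Δep libraries, so that the count of 2 is a description. The sum of the 4 was 5.29 to 17.1 CPM in control and 14.5 to 21.7 CPM in Dnmt1Δ/Δep libraries, and in control libraries most of it was Kdr, which ranged from 2.75 to 13.3 CPM there and from 3.09 to 8.87 CPM in Dnmt1Δ/Δep libraries. The part of leukocytes, fibroblasts, melanocytes and endothelial cells in the changes of the members was not tested.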

How the data were processed

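Poly(A)-selected RNA of cultured keratinocytes was sequenced in 3 control and 3 Dnmt1Δ/Δep libraries, and groups follow the labels. Per the methods, the authors cut adapters, discarded ribosomal reads, aligned with STAR and counted reads on genes with htseq-count in union mode. The column names mark the alignments as uniquely mapped. The deposited values are raw counts, not normalized. A further 5 entries that name no gene hold 8.73% to 12.9% of the counted reads and entered no test. The labels name GRCm38, and the text of the methods names a human index, RefSeq genes and another culture time in a legend, while the table lists Ensembl mouse genes. The authors' tables of comparisons and of repeats were not used here.

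Symbols, positions and exon lengths came from GENCODE M21 on GRCm38 (42462 of 43629 identifiers matched). Counts were tested with edgeR 4.0.16 in R 4.3.3 (quasi-likelihood test, TMM factors 0.980 to 1.02, filterByExpr with minimum counts of 10 and 15, Benjamini-Hochberg adjustment over all genes tested). Standard errors were obtained by dividing the absolute log2 fold change by √F. Tested on simulated data for this comparison over 16829 genes, edgeR recovered 178 of 200 changed genes with 7 false calls and DESeq2 191 with 36 false calls. The changed genes were drawn only from those above a minimum mean count, so that this recovery does not cover genes with few counts. Where no read was counted, up to 3 counts are allowed for (0.0254 to 0.0558 CPM), which covers counting error only. RPKM are CPM per kilobase of merged exons. Pooled ratios have exact 95% counting intervals.

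Replicate numbers pair the libraries. Libraries of a number share 1 of 3 flow-cell lanes in the headers, and their deviations from the group means correlated across genes at 0.43, 0.28 and 0.30. The methods name no block, so the block was an alternative, beside RLE and upper-quartile factors, DESeq2 1.42.0, no filter, a mean RPKM of at least 1, and leaving out each library.

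Named were all 10 members, their paralogs by name, the nearest tested gene on either side, and in each wider list the called genes and the 3 highest per length among the others. Some paralogs are not reported here by name. Il1b, Nlrc4, Nlrp3, Mefv, Bcl2l1 and Nlrp1a were named after their values were seen. The members and lists were chosen with earlier results of these data known.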

Additional observations from a re-analysis of the deposited data

How the results depend on the processing

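Of the members, Mlkl kept its call in 12 of 12 alternatives, Casp12 in 10 of 11, Casp1 in 7 of 11, and Casp4 was called in 4 of 11. With the replicate block, 4 members were upregulated in place of 3, through Casp4, and 6 inflammasome genes in place of 5, through Nlrp1a (log2 fold change 4.91, adjusted p = 0.039 by edgeR). The block changed no other call among the members and the 4 wider lists, and called 1173 genes upregulated and 95 downregulated. With a mean RPKM of at least 1, which leaves 11447 genes, 394 genes were upregulated and 35 downregulated, among them 1 member of 6, 3 inflammasome genes and 1 of the gasdermin and pyroptosis list, since the rare genes are not tested then. Downregulated genes numbered 122 by DESeq2 and 107 without a filter. With 1 library left out, upregulated genes ranged from 559 to 1183 (559 without control replicate 2, 591 without Dnmt1Δ/Δep replicate 1) and downregulated genes from 15 (without Dnmt1Δ/Δep replicate 1 or control replicate 2) to 180 (without control replicate 1). Upregulated members then ranged from 1 (without control replicate 2) to 4 and downregulated members from 0 to 1, the latter Gsdmc without control replicate 1 (log2 fold change -1.33). Downregulated inflammasome genes ranged from 0 to 1 (Pycard, without control replicate 1), and upregulated apoptotic genes from 0 to 1 (Bcl2l1, without Dnmt1Δ/Δep replicate 3). The log2 fold change of Gsdmc reversed to 0.026 without control replicate 3. Causes were not tested. Casp4, Zbp1, Naip2, Naip6 and Gsdma3 had at most 5 counts per control library.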

Other observations

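Nlrp1a, an inflammasome sensor upstream of caspase-1 in the mouse, was looked at after its values were seen. It had 0, 11 and 0 counts in control replicates 1, 2 and 3 and 82, 147 and 0 counts in Dnmt1Δ/Δep replicates 1, 2 and 3, or at most 0.113 CPM against 1.38, 1.70 and 0 CPM. The libraries of both groups thus include some without a read, and the fitted log2 fold change of 4.53 did not pass the test (95% interval 0.45 to 8.62, adjusted p = 0.17 by edgeR). Dnmt1Δ/Δep replicate 3, without a read of Nlrp1a, had the most reads of Casp1 and Casp12. The paralog Nlrp1b had between 4 and 30 counts in every library, and its groups overlapped.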
